A study of Homo sapiens with 6 samples.

Results

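SWI-SNF complexes slide and evict nucleosomes with the energy of ATP, and 10 genes that code for their parts were examined. The genes were taken by name: the catalytic ATPases SMARCA4 and SMARCA2, the DNA-binding ARID subunits ARID1A, ARID1B and ARID2, the polybromo subunit PBRM1, and the shared subunits SMARCB1, SMARCC1, SMARCC2 and SMARCD3. All 10 were found among the 27968 genes of each table, with 40 of the 70006 listed transcripts. The rule uses names and no measured value, but the genes were picked with earlier results of these data known. RNA was sequenced from H23 and A549, both human lung cancer cell lines, with 3 independently grown cultures of each. The sample titles all carry CTL, and no treatment or genetic manipulation is named in the labels. H23 was kept in RPMI 1640 (RPM1640 in the labels) and A549 in DMEM, each with 10% fetal bovine serum, and RNA was taken at about 80% confluence, so line and medium cannot be told apart. Each line stands for itself alone. The files hold RNA levels and no protein or genotype.

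A SWI-SNF complex carries 1 ATPase, either SMARCA4 (BRG1) or its close paralog SMARCA2 (BRM). In the canonical BAF and PBAF forms the core holds SMARCB1, a pair of SMARCC subunits and a SMARCD subunit. The canonical BAF form adds ARID1A or ARID1B, which exclude each other, whereas the PBAF form adds ARID2 and PBRM1. Genes of the complex, above all ARID1A and SMARCA4, are often mutated in lung cancer. A549 is known for an inactivating SMARCA4 mutation, and cells without SMARCA4 protein can depend on SMARCA2. With no genotype in the files, the SMARCA4 state of H23 and of A549 was not tested here.

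The libraries held 29395795 to 42421642 expected counts in H23 and 23399562 to 25348083 in A549. H23 replicate 1 stood apart: its chi-square per gene against the other H23 libraries was 105 and 134, against 5.48 between those libraries and 3.72 to 3.91 within A549. The 10 most abundant genes took 11.0 to 11.4% of all TPM (transcript abundance scaled for length and depth) in H23 and 34.0 to 36.6% in A549, which lowers the TPM of other A549 genes. The top gene by TPM was RNR2 or GAPDH in H23 libraries and the structural RNA RNA5-8SN4 or RMRP in A549 libraries. Any difference in library handling between the lines cannot be told apart from line. All 6 epithelial markers were at 1 TPM or more in every library. They summed to 3982 to 4132 TPM in H23 and 5761 to 5975 TPM in A549. They did not go one way. KRT7 was at 1.11 to 1.36 TPM in H23 and 2416 to 2625 TPM in A549. KRT8 and KRT19 were also higher in A549 by edgeR (log2 folds, A549 over H23, of 0.55 and 3.72). EPCAM (-0.91) and CDH1 (-1.43) were higher in H23, and KRT18 (0.07) did not pass. The lung lineage markers summed to 2.9 to 3.81 TPM in H23 and 0.62 to 0.86 in A549, with SFTPA1 and SCGB1A1 at 0 in every library. Of these, NKX2-1 was at 1.95 to 2.61 TPM in H23 and at 0 in every A549 library (edgeR adjusted p = 6.73e-05). NAPSA did not pass edgeR's test (log2 fold -0.34). The fibroblast markers summed to 6.29 to 10.1 TPM in H23 and 2.23 to 2.96 in A549, with DCN at 0. The blood markers summed to 2.38 to 4.94 and 2.6 to 3.02 TPM, nearly all of it CD14, with CD3E and HBB at 0. The endothelial markers summed to at most 0.3 TPM. The part of these markers in the results was not tested. In such bulk RNA, fewer cells of a type and less RNA per cell cannot be told apart.

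Of the 10 genes, 3 were higher in A549 (SMARCA2, ARID2 and PBRM1), 6 were higher in H23 (SMARCA4, ARID1A, SMARCB1, SMARCC1, SMARCC2 and SMARCD3), and ARID1B did not pass edgeR's quasi-likelihood test. Over all 15426 genes tested, 77.2% passed, 37.6% higher in A549 and 39.6% higher in H23, so the share of SWI-SNF genes called stands near the background. At least 2-fold differences passed for 7 of the 10, 2 toward A549 and 5 toward H23, against 50.1% of all genes tested, 24.5% toward A549 and 25.6% toward H23. The libraries of the lines did not overlap for 9 of the 10, against 82.1% of all genes tested. The median log2 fold (A549 over H23) was -0.84 for the 10 and -0.03 for all genes tested. The differences ran from 25.9-fold higher (SMARCA2) to 11-fold lower (ARID1A) in A549. All 10 had whole-number expected counts in every library, as did 79.2% of genes tested, within 0.005 of a count. Reads shared with other genes therefore put no fraction into these counts.

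**Figure D1:**
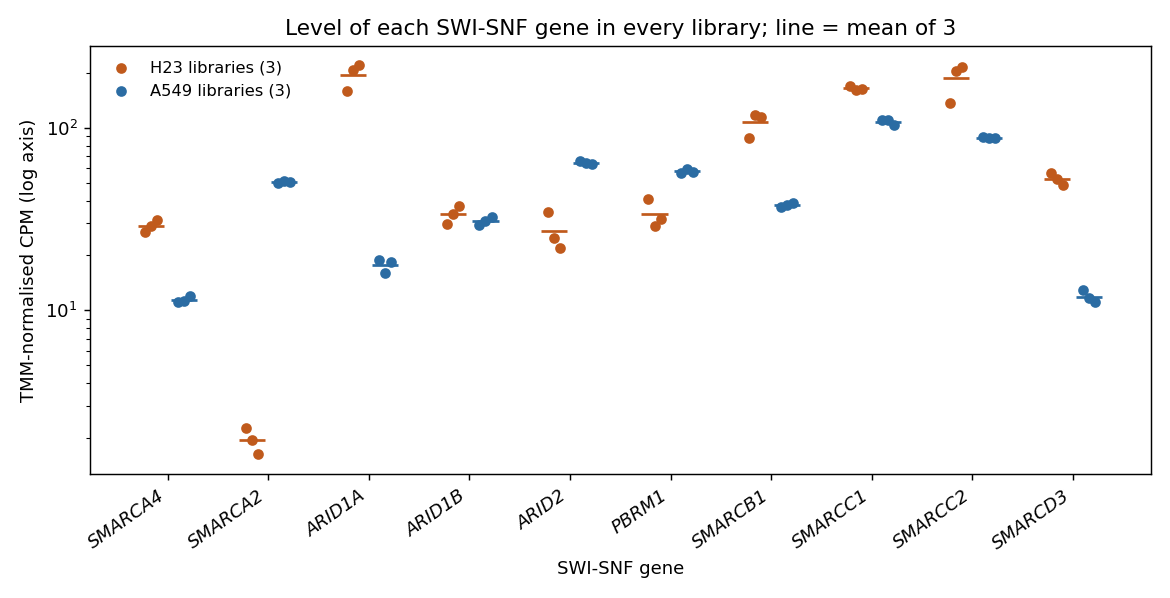
TMM-normalised CPM (counts scaled to library size, log axis) of each SWI-SNF gene in the 3 H23 (orange) and 3 A549 (blue) libraries, with a line at each mean. SMARCA2 lies near 2 CPM in H23 and near 50 CPM in A549, ARID1A runs the other way, and only the ARID1B points of the lines overlap.

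The ATPase paralogs differed in opposite directions: SMARCA4 was the main ATPase transcript of H23 and SMARCA2 that of A549. SMARCA2 stood at 2.27, 1.94 and 1.62 CPM in the H23 libraries and at 50.04, 50.9 and 50.4 CPM in the A549 libraries. Every A549 library lay far above every H23 library, and the H23 values rest on 86, 58 and 69 counts. The log2 fold was 4.70 ± 0.14 (SE), with an adjusted p of 5.93e-07 by the quasi-likelihood test of edgeR after Benjamini-Hochberg adjustment, the method behind each adjusted p for a gene unless another is named. On log2(TPM + 1), which understates the fold of a gene this low in H23, the difference was 2.62. SMARCA4 stood at 26.8, 28.8 and 31.2 CPM in H23 and at 11.1, 11.2 and 12.0 CPM in A549. It was lower in every A549 library but stayed detected, with 268 to 281 counts in each (log2 fold -1.34 ± 0.10, edgeR adjusted p = 2.27e-05).

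Set against each other per length, SMARCA2 made up 14.4, 11.3 and 7.01% of the summed TPM of the ATPase pair in H23 and 82.4, 84.1 and 82.6% in A549. The libraries of the lines did not overlap (means 10.9 ± 3.71% and 83.0 ± 0.905%, SD, n = 3), with an exact two-sided permutation p of 0.1, the smallest that 3 libraries against 3 can give, and 0.125 after adjustment over the 5 shares examined. The pair's summed level was not equal either. It was 6.26 ± 0.207 CPM per kilobase in H23 and 13.02 ± 0.734 in A549, a 2.08-fold difference with no overlap of libraries. Here CPM is divided by each gene's effective length in that library. Both measures count all SMARCA2 transcripts, including short ones, described next, that do not code for the full ATPase. Long SMARCA2 transcripts alone stood at 0.31, 0.31 and 0.35 TPM in H23 and at 8.71, 8.28 and 8.87 TPM in A549. SMARCA4 stood at 7.61, 8.9 and 9.69 TPM in H23 and at 2.25, 2.24 and 2.55 TPM in A549.

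SMARCA2 is annotated with long transcripts for the full ATPase and with short ones that begin far inside the gene and code for its last part, including the bromodomain. The windows before these starts are shown because the RNA of both kinds differed between the lines, and the SMARCA4 and ARID1A windows because these genes differed the other way. Each is the longest run of the 250 bases before the RefSeq start (GRCh38.p14, plus strand) that overlaps no GENCODE exon of the gene. Capitals mark GGGCGG or its reverse complement CCGCCC, the GC box that SP1-type factors bind. No deposited value comes from these windows.
SMARCA2 long start, chr9:2015097-2015185: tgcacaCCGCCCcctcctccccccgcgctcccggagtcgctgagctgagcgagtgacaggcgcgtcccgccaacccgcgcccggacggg
SMARCA2 short start, chr9:2158393-2158448: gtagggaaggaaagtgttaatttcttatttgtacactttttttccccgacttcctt
SMARCA4 start, chr19:10960780-10960824: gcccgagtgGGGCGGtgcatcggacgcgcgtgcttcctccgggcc
ARID1A start, chr1:26695765-26696014: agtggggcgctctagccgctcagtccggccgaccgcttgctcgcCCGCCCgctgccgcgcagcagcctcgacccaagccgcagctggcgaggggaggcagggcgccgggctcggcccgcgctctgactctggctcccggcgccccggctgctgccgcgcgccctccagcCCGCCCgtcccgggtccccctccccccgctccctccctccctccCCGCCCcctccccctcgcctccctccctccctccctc

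Over the whole 250 bases, the long SMARCA2 window was 68.8% G and C with 29 CpG dinucleotides and 2 GC boxes, and the short one 42% with 8 CpG and none. The SMARCA4 window was 82.4% with 44 CpG and 4 GC boxes, and the ARID1A window 80.4% with 30 CpG and 3 GC boxes. Except for ARID1A, these counts include bases inside GENCODE exons of the gene. The long model NM_139045 begins at chr9:2015186, within the long SMARCA2 window. The printed runs were 89 bases with 13 CpG (SMARCA2 long), 56 with 1 (SMARCA2 short), 45 with 7 (SMARCA4) and 250 with 30 (ARID1A). None of these 4 windows held CCAAT on either strand. Of all 35116 windows in the RefSeq table, 42.6% held a GC box and 32% held CCAAT on either strand, with a median of 11 CpG and 58% G and C. The table had windows for 7 of the 10 genes. SMARCA2 has 4 windows in the table, of which 2 are shown: those nearest the starts of the leading long and the leading short model. These counts describe sequence only.

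The long SMARCA2 transcripts, 4 models of 5651 to 5879 bases, stood at 1.19, 1.10 and 1.24 CPM in H23 and at 47.0, 45.2 and 45.3 CPM in A549, a 39.1-fold difference of the means. The short ones, 3 models of 1820 to 2241 bases, stood at 1.09, 0.843 and 0.389 CPM in H23 and at 3.04, 5.70 and 5.05 CPM in A549, a 5.95-fold difference. Both kinds were thus higher in all A549 libraries. In H23 the counts behind them are few, 44.9, 32.8 and 52.5 on long forms and 41.1, 25.2 and 16.5 on short forms. RSEM divides reads between models that share most of their sequence, since a short model lies almost wholly within the end of a long one.

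By the deposited percent of SMARCA2 transcripts, short forms took 75.7, 72.5 and 52.0% in H23 and 17.3, 29.9 and 26.7% in A549, without overlap. The leading model was the short NM_001289399 in H23 (66.8 ± 12.9%) and the long NM_139045 in A549 (57.9 ± 3.98%). SMARCA2 was the only one of the 9 members with 2 or more testable transcripts to pass edgeR's test of transcript usage (adjusted p = 0.043), against 25.9% of the 7539 genes tested. It passed in none of the 10 alternative fits, whose adjusted p ran from 0.069 to 0.188 and which include leaving out each library in turn and the replicate block.

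A further difference among the long forms is a 54-base coding stretch, present in NM_003070 and NM_001289396 and absent from NM_139045, at chr9:2170419-2170472 (GRCh38, plus strand, GENCODE v29).
SMARCA2 alternative stretch: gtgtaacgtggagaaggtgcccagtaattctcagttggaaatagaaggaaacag
Transcripts that hold it took 0, 0 and 27.9% of SMARCA2 in the H23 libraries and 20.8, 10.6 and 16.6% in the A549 libraries. The single H23 library with any lay above all of A549, so no order between the lines can be read, and it rests on 30.6 counts.

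**Figure D2:**
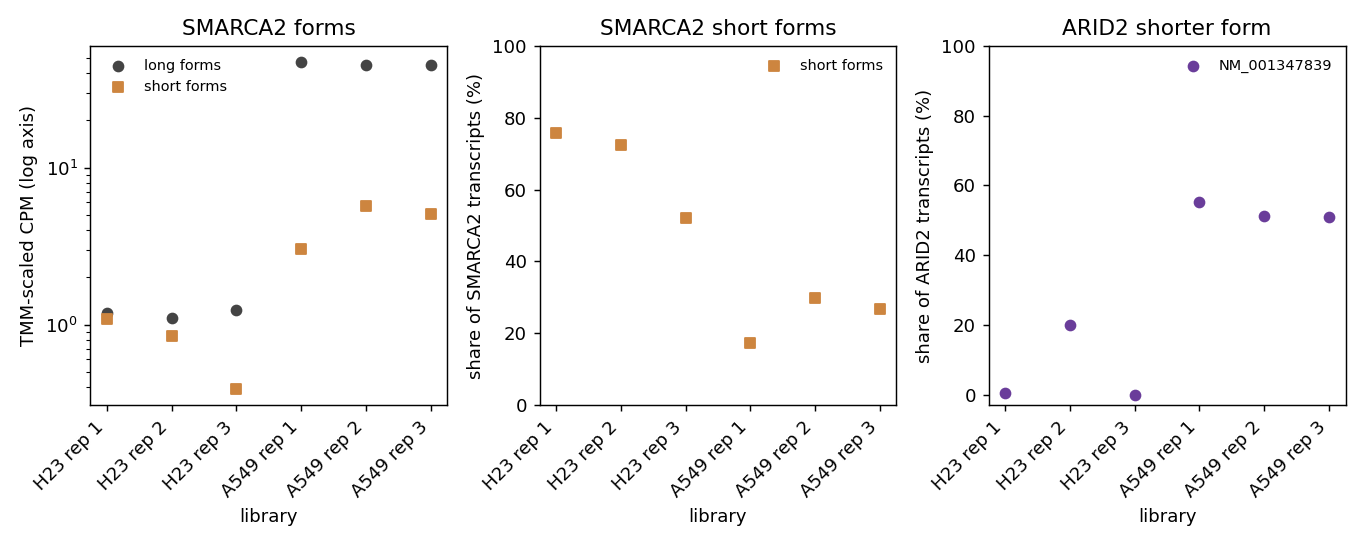
SMARCA2 long and short forms in TMM-scaled CPM (left, log axis), the short forms as a percent of SMARCA2 transcripts (middle) and the shorter ARID2 model as a percent of ARID2 transcripts (right), by library. Long SMARCA2 forms step from about 1 CPM in H23 to 45.2 or more in A549, short forms take 52.0% or more in H23 and under 30% in A549, and the shorter ARID2 model passes 50% only in A549.

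The ARID subunits differed by member: ARID1A was far lower in A549, ARID1B close in both lines, and ARID2 higher in A549. ARID1A, the BAF subunit most often mutated in cancer, stood at 160, 209 and 220.2 CPM in H23 and at 19.0, 15.98 and 18.5 CPM in A549. No library of either line came near the other line (log2 fold -3.46 ± 0.16, edgeR adjusted p = 2.53e-06). ARID1B, its alternative in the same place, stood at 29.6, 33.9 and 37.5 CPM in H23 and at 29.3, 30.8 and 32.5 CPM in A549. These ranges overlapped, and the log2 fold of -0.12 ± 0.11 did not pass (edgeR adjusted p = 0.349). Without H23 replicate 1 it was -0.22 with an adjusted p of 0.00352, and on log2(TPM + 1) with limma -0.55 with 0.00621, both lower in A549.

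ARID1A was 86.4, 87.5 and 87.1% of the summed TPM of ARID1A and ARID1B in H23 and 42.4, 37.2 and 39.4% in A549, so ARID1B was the more abundant of the pair per length in every A549 library. The difference of -47.3 percentage points had an exact two-sided permutation p of 0.1, the smallest possible. Unlike the ATPases, the pair's sum was lower in A549, at 27.1 ± 3.92 CPM per kilobase in H23 and 5.37 ± 0.242 in A549, 5.05-fold lower.

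ARID2, the DNA-binding subunit of PBAF, stood at 34.6, 25.0 and 22.1 CPM in H23 and at 65.7, 64.5 and 63.6 CPM in A549. All A549 libraries lay above all H23 libraries, with H23 replicate 1 the nearest (log2 fold 1.25 ± 0.17, edgeR adjusted p = 0.000436). PBRM1, the polybromo subunit of PBAF, stood at 40.9, 29.1 and 31.7 CPM in H23 and at 56.3, 59.4 and 57.4 CPM in A549. It too was higher in all A549 libraries (log2 fold 0.77 ± 0.14, edgeR adjusted p = 0.00175). The PBAF subunits PHF10 and BRD7, named after their values were seen, were not called higher in A549. PHF10 was lower in A549 (log2 fold -1.38 ± 0.12, edgeR adjusted p = 3.94e-05). BRD7 did not pass (log2 fold 0.28 ± 0.13, edgeR adjusted p = 0.0779). Its A549 libraries (95.9 to 97.7 CPM) all lay above its H23 libraries (70.6 to 95.1 CPM), with H23 replicate 1 the nearest. Of the 3 ARID genes' summed TPM, ARID2 was 15.3, 10.1 and 7.96% in H23 and 64.4, 64.5 and 62.0% in A549.

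ARID2 and PBRM1 both moved when trends over all genes were removed. With a smooth trend of level with length alone removed from each library, the ARID2 log2 fold was 0.74 and that of PBRM1 0.26, which did not pass (edgeR adjusted p = 0.063). With length and GC content removed together, ARID2 stood at 0.20 (edgeR adjusted p = 0.030) and PBRM1 at 0.32 (0.018), so the step from length to GC lowered ARID2 and not PBRM1. Genes under 42% G and C, among them ARID2 at 41.1%, had a median log2 fold of 0.84 (2162 genes), whereas genes from 46 to 50%, among them PBRM1 at 46.1%, had -0.06. PBRM1 also did not pass on log2(TPM + 1) with limma (0.20, adjusted p = 0.135). Within H23, replicate 1 against the mean of the other replicates was shifted the same way, by a median log2 of 0.63 under 42% G and C and of -0.26 at 58% or more. In the same contrast ARID2 stood at 0.56, PBRM1 at 0.43, ARID1A at -0.42 and SMARCC2 at -0.61. SMARCA2 (46.8% G and C) and ARID1A (54.6%) kept log2 folds of 4.65 and -3.37 with the trend removed, and SMARCA4 (58.6%) one of -1.03.

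**Figure D3:**
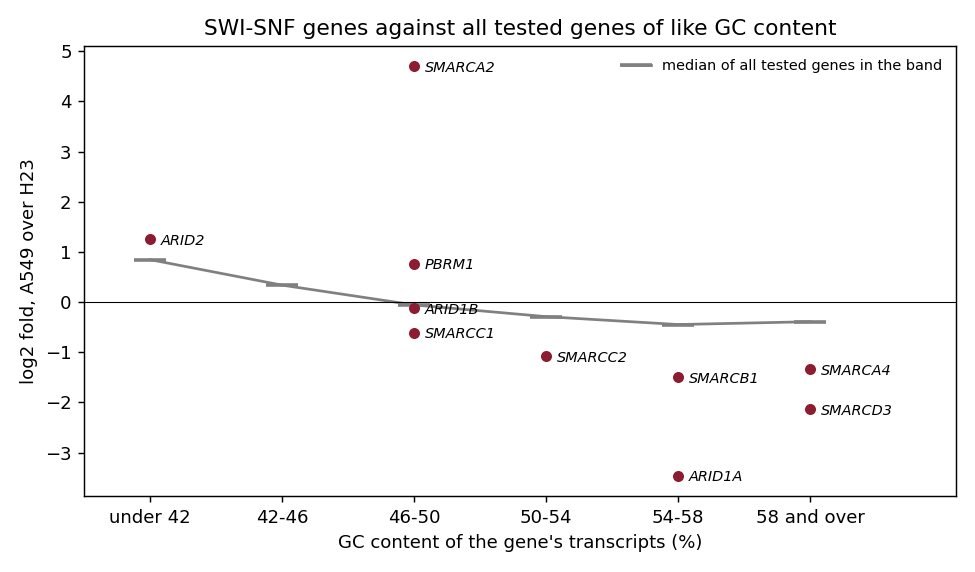
Log2 fold (A549 over H23) of each SWI-SNF gene (red) in bands of transcript GC content, with the median of all tested genes in the band (grey). ARID2 lies near its band's median of 0.84, and SMARCA2 and ARID1A lie farthest from theirs.

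ARID2 also differed in which transcript was listed. Its shorter model, NM_001347839 of 5686 bases, took 0.44, 19.9 and 0% of ARID2 in H23 and 55.4, 51.2 and 51.0% in A549. The libraries did not overlap, but the usage test did not pass (edgeR adjusted p = 0.0667) with all libraries. It passed with limma-voom on all libraries (adjusted p = 0.00366) and with edgeR without H23 replicate 2 (0.000246). For ARID1A, the model NM_139135, which lacks a 651-base coding stretch (chr1:26774329-26774979, GRCh38), took 38.8, 0 and 7.40% in H23 and 0, 6.97 and 8.10% in A549. H23 replicate 1 alone was high there, and usage did not pass (edgeR adjusted p = 0.551).

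**Figure D4:**
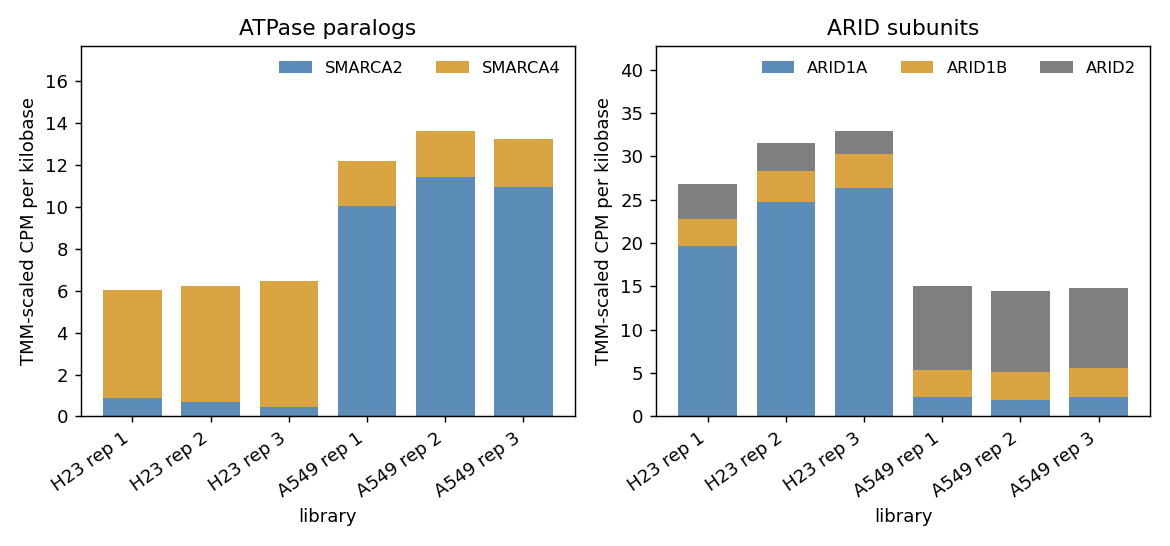
Stacked TMM-scaled CPM per kilobase of effective length for the ATPase paralogs (left) and the ARID subunits (right) in each library. SMARCA2 includes its short forms. The ATPase sum is higher in A549 (13.02 against 6.26) and is mostly SMARCA2 there, while the ARID sum is lower in A549 (14.8 against 30.4) and mostly ARID2.

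The 4 core and shared subunits among the 10 genes were lower in A549, by less than ARID1A. Outside the 10, ACTL6A (log2 fold -0.65 ± 0.07, edgeR adjusted p = 0.00015) and SMARCD1 were also lower in A549. SMARCE1 (log2 fold 0.33 ± 0.16, edgeR adjusted p = 0.0994) and SMARCD2 did not pass. SMARCE1 and ACTL6A are named after their values were seen. SMARCB1 (SNF5), the core subunit lost in rhabdoid tumours, stood at 88.1, 118 and 115 CPM in H23 and at 37.1, 37.9 and 38.8 CPM in A549 (log2 fold -1.50 ± 0.13, edgeR adjusted p = 4.54e-05). SMARCC1 (BAF155), a scaffold of the core, stood at 171, 162 and 163 CPM in H23 and at 110.3, 110.7 and 104 CPM in A549. It had the smallest of the 9 differences that passed (log2 fold -0.61 ± 0.07, edgeR adjusted p = 0.000231). Its paralog SMARCC2 (BAF170) stood at 138, 206 and 217 CPM in H23 and at 88.7, 88.5 and 88.2 CPM in A549, with H23 replicate 1 well under the other H23 libraries (log2 fold -1.08 ± 0.17, edgeR adjusted p = 0.000953). SMARCD3 (BAF60C), known for its part in heart and muscle development, stood at 56.4, 52.7 and 48.5 CPM in H23 and at 12.9, 11.7 and 11.1 CPM in A549. Every A549 library lay far below every H23 library (log2 fold -2.14 ± 0.11, edgeR adjusted p = 3.71e-06).

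SMARCC1 was 51.9, 40.8 and 39.7% of the SMARCC pair by TPM in H23 and 51.8, 52.0 and 50.6% in A549. The lines overlapped through H23 replicate 1, with an exact two-sided permutation p of 0.3. SMARCD3 was 32.6, 26.2 and 24.4% of the 3 SMARCD genes in H23 and 11.8, 10.9 and 10.8% in A549 (exact two-sided permutation p = 0.1, the smallest possible). Of its partners, SMARCD1 had a log2 fold of -1.43 ± 0.15 and SMARCD2 one of 0.02 ± 0.09, which did not pass edgeR's test, and turned to -0.54 on log2(TPM + 1) and 0.67 with the length and GC trend removed. SMARCB1 has a 27-base alternative coding stretch at chr22:23791868-23791894 (GRCh38, plus strand), printed because both its forms were abundant in both lines.
SMARCB1 alternative stretch: gtaaaaaaacaaaacctaacactaagg
The model without it, NM_001007468, took 51.7, 42.4 and 43.9% of SMARCB1 in H23 and 42.4, 36.0 and 35.7% in A549. Usage did not pass (edgeR adjusted p = 0.356). For SMARCC2 the leading model NM_003075 took 82.1, 82.5 and 86.1% in H23 and 66.7, 67.2 and 68.1% in A549, without overlap. Its usage test did not pass with edgeR on all libraries (adjusted p = 0.187). It passed with limma-voom on all libraries (adjusted p = 0.0405) and with edgeR without H23 replicate 1 (0.000713).

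**Figure D5:**
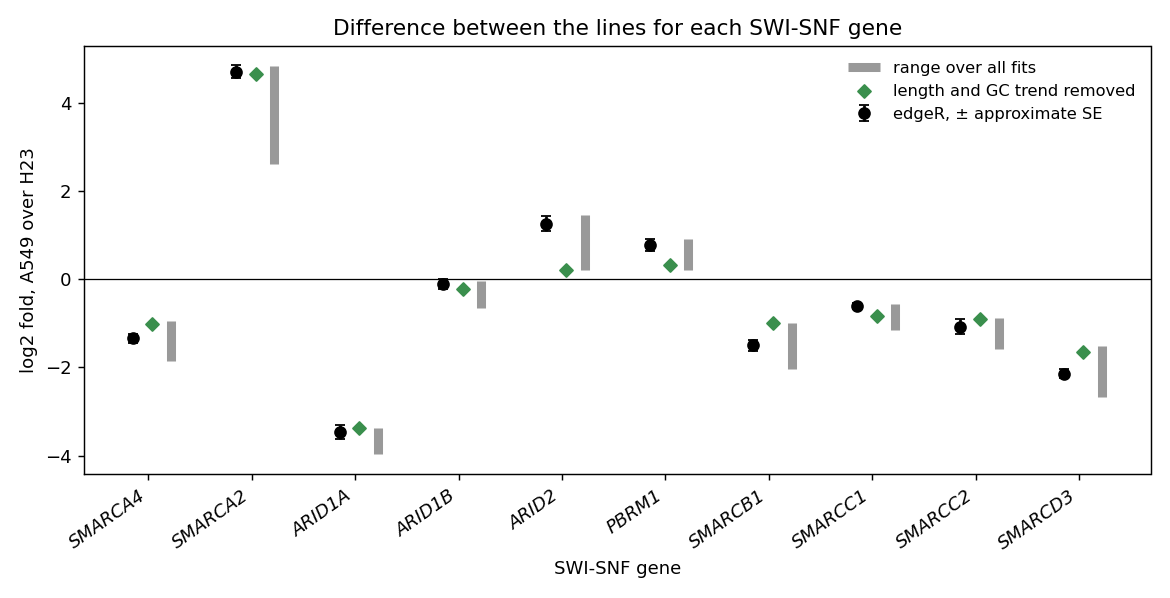
Log2 fold (A549 over H23) of each SWI-SNF gene by edgeR with its approximate SE (black), with the length and GC trend removed (green) and as the range over all fits (grey bar). SMARCA2 and ARID1A keep the largest folds, while ARID2 goes from 1.25 to 0.20 and PBRM1 from 0.77 to 0.32.

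Ordered by TPM, the genes made a different series in each line. In H23 SMARCB1 led at 108 TPM, followed by SMARCC2 (60.2) and SMARCD3 (54.1), whose libraries overlapped, then SMARCC1 (46.2) and ARID1A (37.0). A gap followed to SMARCA4 (8.73), PBRM1 (6.98), ARID1B (5.51) and ARID2 (5.12), of which each neighbouring pair overlapped, and SMARCA2 was lowest at 1.05. In A549 SMARCB1 led at 26.1 TPM, followed by SMARCC1 (20.6), SMARCC2 (19.5), SMARCA2 (11.5) and ARID2 (9.96). SMARCD3 (8.38) and PBRM1 (8.15) overlapped, ARID1B stood at 3.44, and SMARCA4 (2.35) and ARID1A (2.26) overlapped at the bottom. SMARCA2 thus ranked 10 in H23 and 4 in A549, and ARID1A 5 and 10, on a scale that compares genes within a line.

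The genes with the most similar levels over the 6 libraries were found among 9572 genes by the Euclidean distance of gene-centred log2 CPM. For SMARCA2 they were COL4A2 (0.234), ZNF460 (0.256) and BDNF (0.326), and 11 genes lay within 0.5. SMARCA4 was nearest to NFYA (0.0772), DUSP23 (0.0867) and C12orf57 (0.0995), with 871 genes within 0.5. ARID1A was nearest to DLGAP4 (0.126) and NFIC (0.135), with 59 within 0.5. With 3 libraries a line, such a distance mostly reads the difference between the lines.

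Among 20 other SWI-SNF subunits, 18 could be tested, of which 2 were higher in A549 (37.6% of all genes tested), 11 were higher in H23 (39.6%) and 5 did not pass, with a median log2 fold of -0.60. BCL11A, a zinc-finger subunit, was at 11.9 ± 1.63 CPM in H23 and had no count in any A549 library, at least 286-fold lower against a floor of 3 counts. BICRA (-3.54 ± 0.18) and BICRAL (-1.98 ± 0.14), the alternative subunits that define the non-canonical BAF form, were lower in A549 (log2 folds, edgeR). BRD9 (0.60 ± 0.08), the bromodomain subunit of that same form, and BCL7A (0.76 ± 0.10) were higher. With the length and GC trend removed, 6 were higher in A549 and 9 in H23, with a median of -0.16, beside 6152 and 5929 of 14933 genes in that fit. On log2(TPM + 1) none was higher in A549 and 14 were higher in H23, on a scale where all genes split as 3868 and 8334 of 15426.

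Of 20 ATPases of other Snf2-type remodellers, all tested, 10 were higher in A549 (37.6% of all genes tested), 7 were higher in H23 (39.6%) and 3 did not pass, with a median log2 fold of 0.46. The share toward H23 is near the background. CHD9 (3.39 ± 0.40), ATRX (3.06 ± 0.48) and CHD1 (2.92 ± 0.55) had the largest log2 folds toward A549, with transcripts of 36.5 to 39.6% G and C, the band whose genes had a median of 0.84. With the length and GC trend removed these folds were 2.47, 2.13 and 1.52, and without H23 replicate 1 they were 4.03, 3.86 and 3.89. CHD5 (-4.59 ± 0.20), SRCAP (-2.53 ± 0.27) and EP400 (-2.41 ± 0.11) had the largest toward H23. By edgeR, SMARCA2's log2 fold of 4.70 stood above that of every ATPase in this list, with no test of that order.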

How the data were processed

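RNA-seq of 3 H23 and 3 A549 cultures was analysed from per-library gene and transcript tables. Per the labels' protocols, ribosomal RNA was depleted and strand-marking total RNA libraries were made. The submitters' processing notes name STAR 2.6.0c, RSEM 1.3.0 and hg19; their options, annotation release and strand setting are not given in the sources used here. Per the file headers, the deposited expected counts give the reads RSEM estimated per gene or transcript, the deposited TPM is scaled for length and depth, and the deposited percent values are each transcript's share of its gene. Deposited lengths in bases sorted transcripts. Counts per library and the spread between independent cultures set the precision, and p-values set the difference between the lines against that spread.

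Expected counts were rounded and tested with edgeR 4.0.16 (R 4.3.3): filterByExpr (minimum count 10), TMM factors of 0.985 to 1.02, robust quasi-likelihood F test, line as the only term, and Benjamini-Hochberg adjustment over 15426 genes with a threshold of 0.05. The common biological coefficient of variation was 0.168. Approximate standard errors came from dividing the size of the log2 fold by the root of its F. Transcript usage was tested with diffSpliceDGE on 24779 transcripts of 7539 genes. Shares used TPM and exact permutation tests. DESeq2 1.42.0, limma 3.58.1, other scalings and filters, trends with length and GC content (mgcv 1.9.3) and left-out libraries were alternatives. The scripts were tested on simulated data. Promoter windows come from RefSeq (GRCh38.p14) and coding stretches from GENCODE v29 (GRCh38). The deposited tables hold no coordinates and their build is hg19, so no position is given for deposited values.

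The same replicate number correlated at 0.025, -0.039 and 0.054 between the lines, so numbers were not taken as pairs. Members and lists were chosen with earlier results of these data known. Named were all 10 members, SMARCD1 and SMARCD2, and up to 3 genes per direction with the largest passing folds in each related list. Also named were the 3 nearest genes for SMARCA4, SMARCA2 and ARID1A among those with a mean of at least 5 TPM, and listed markers. Transcripts could be named at a mean share of at least 10% in either line. Not all of these were, and none of ARID1B, PBRM1 or SMARCC1 is named. For ARID1A, 1 of the nearest genes is not reported here. NM_001289396, NM_003070, SMARCE1, ACTL6A, PHF10 and BRD7 fall outside these rules and were named after their values were seen.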

Additional observations from a re-analysis of the deposited data

How the results depend on the processing

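Over 18 alternative gene-level fits, SMARCA4, SMARCA2, ARID1A, SMARCB1, SMARCC1, SMARCC2 and SMARCD3 kept their direction and call. ARID1B passed in 6, PBRM1 did not pass in 3 and ARID2 did not in 1. SMARCA2 ranged from 2.62 to 4.84 and ARID1A from -3.97 to -3.37 on the log2 scale. On log2(TPM + 1) the calls of all genes were 3868 toward A549 and 8334 toward H23 (5801 and 6109 by edgeR on counts), with a median shift of -0.41, and on log2(TPM + 0.1) 3862 were higher in A549. SMARCD2 turned to -0.54 and -0.55 on these scales.

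Other SWI-SNF subunits higher in A549 numbered 2 by edgeR, 0 and 0 on the TPM scales, 7 with the length trend removed and 6 with length and GC. Leaving out each library gave 2 to 5, the highest without H23 replicate 1. Fits chosen after seeing the data gave 6 with the replicate block and the length and GC trend removed, and 8 with that trend removed without H23 replicate 1.

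With the replicate block as a term, 5798 genes were called higher in A549 and 5893 in H23, SMARCA2 stood at 4.70, and no member's gene-level call differed. With the block and the length and GC trend removed together, ARID2 stood at 0.20 (edgeR adjusted p = 0.0593) and ARID1B at -0.22 (0.0459).

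Transcript usage was called in 1953 genes, 1057 with the Simes combination and 1297 with the replicate block. Members called were 1 by edgeR, 0 with all transcripts kept, 2 with limma-voom, 0 with Simes and 0 with the replicate block. Leaving out each library gave 0 to 2, and 2 without H23 replicate 1. In raw counts, not per length, the ARID2 share differed by 46.1 points (52.5 by TPM) and that of SMARCD3 by -10.6 (-16.6). The cause of these shifts was not tested. Few SMARCA2 counts in H23 limit its transcript shares.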
